A study of Drosophila melanogaster with 4 samples.

Results

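Vm34Ca, soti and Dup99B are genes of the reproductive tract that differ in the tissue and sex known to use them. Each was identified by its RefSeq transcript, which the array design gives as the identifier of a probe, and each has 1 probe among the 32162 non-control probes. They belong to the 345 genes, with 393 probes, to which a symbol could be given in this way. The Vm34Ca probe is spotted in a pair of places on every array, the others in 1 place each, so that 4 of the 43602 non-control spots hold the values described below.

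The 4 groups were w1118 flies, labelled as wild type, whose whole bodies were taken at an age of 10 days. HN females and HN males had been kept under hyperbaric normoxia (HN, 2 ATA) from the egg until eclosion and then under standard conditions, and Ctrl females and Ctrl males had not been exposed. Each group was 1 pool of 20 flies on 1 one-color Agilent array. The number of arrays thus sets the precision, and no change with HN has a replicate check within a sex. All 4 arrays lay on 1 slide. The Ctrl male array was read in a scan of its own, so that scan and treatment cannot be told apart in males. Because whole bodies were used, a smaller tissue and less RNA per cell cannot be told apart either.

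The eggshell of Drosophila is laid down by the somatic follicle cells around each oocyte, starting with the vitelline membrane, of which Vm34Ca encodes a structural protein. In the testis, spermatids elongate in a common cyst and are then separated from each other in a caspase-dependent step called individualization. The product of soti limits that caspase activity by inhibiting a Cullin-3 ubiquitin ligase. The ejaculatory duct of the male adds its own secretion to the seminal fluid, and Dup99B is a small peptide of that secretion, related to the sex peptide of the accessory gland, which acts on the behavior of mated females.

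The arrays had between 21544 (67.0%) and 25220 (78.5%) of 32136 probes well above background, fewer on the female than on the male arrays, and no saturated spot. A probe passed as well above background only where the software that read the array marked all of its usable spots so. The lowest spot so marked had a signal of 21.2 in Ctrl females, 19.2 in HN females, 27.7 in Ctrl males and 15.9 in HN males. These signals are taken below as the limits of the arrays. The 153 negative control spots of each array, all of 1 sequence, had median signals between 4.03 and 6.73, and 4 of them on the Ctrl female and 1 on the HN male array were marked well above background.

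Vm34Ca gave a strong signal in females and none that was well above background in males. Before scaling between arrays, its 2 spots read 18972 and 19276 in Ctrl females and 18863 and 19641 in HN females. They read 20.02 and 6.87 in Ctrl males and 10.5 and 4.81 in HN males. All 4 female readings were thus alike, and all 4 male readings lay below the limit of their array. On each male array the brighter spot read above the 95th percentile of the negative control spots (8.57 in Ctrl males, 5.51 in HN males) and the dimmer spot below it. The software marked both spots in HN males and the brighter spot in Ctrl males as positive and significant against the local background. On the Ctrl male array, 2 and 69 of the 153 negative control spots were as bright as the respective Vm34Ca spots or brighter, and on the HN male array 3 and 18 were. The brighter spot on the Ctrl male array had a median local background of 66.5, against 32.0 around the other, and its part in that reading was not tested. Vm34Ca was thus well above background in females alone, in both treatment groups.

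Dup99B showed the opposite pattern. Its single spot read 6661 in Ctrl males and 8383 in HN males. It read 4.25 in Ctrl females, where 152 of 153 negative control spots were as bright or brighter. In HN females it read 19.9, just past the limit of 19.2 and counted as well above background, and 1 of 153 negative control spots was as bright or brighter. The software gave an error of 4.23 for the first of these female readings and 4.28 for the second. Dup99B was thus high in both male pools, at the level of probes without a target in Ctrl females and next to the limit in HN females.

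The soti probe gave no signal well above background on any array. It read 6.30 in Ctrl females, 10.7 in HN females, 13.3 in Ctrl males and 13.2 in HN males, each with an error of 4.37 to 6.97 as given by the software. The software marked all 4 readings as positive and significant against the local background. That mark alone was common, and between 10.8% and 13.9% of probes on an array carried it without being well above background. Among the negative control spots, 17 of 153 on the Ctrl female array, 1 on the HN female, 3 on the Ctrl male and 2 on the HN male array were as bright as soti or brighter. Within each treatment, the reading of females and that of males, each with its software error to either side, overlapped. These readings are before scaling between arrays. After it, the order of the sexes was reversed in HN flies, with 16.2 in females and 7.97 in males. A sex limitation of soti was therefore not detectable with this probe, and no ratio is given for it. Known as a spermatid gene, soti was not shown by this probe in either sex.

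**Figure D1:**
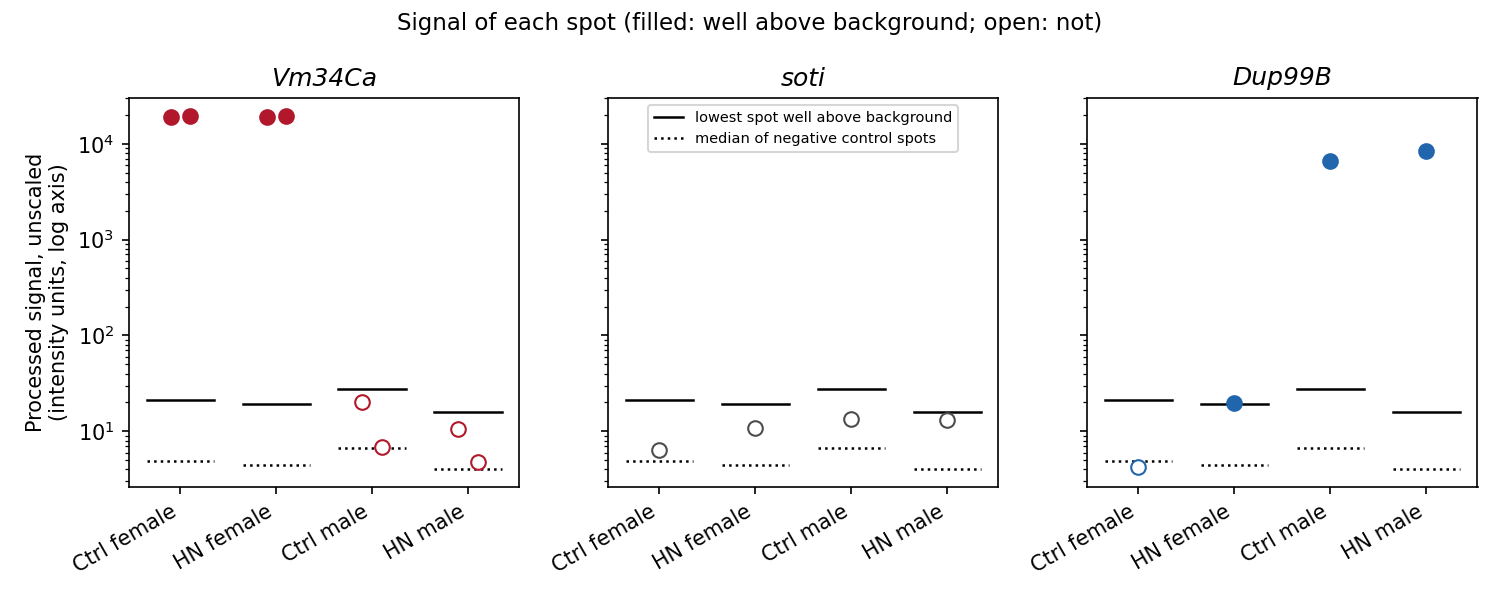
Processed signal of every spot of Vm34Ca, soti and Dup99B on the 4 arrays, before scaling, on a log axis; filled points are well above background and open points are not, solid lines mark the lowest spot well above background on each array and dotted lines the median of its negative control spots. Vm34Ca stands between 18863 and 19641 in females only, Dup99B between 6661 and 8383 in males, and all soti spots lie under the solid lines.

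Another gene of spermatids was measured on the male arrays. The gene hale, on a list of 40 spermatid and male germline genes, is known for transcripts in elongating spermatids. It had a scaled signal of 1738 in Ctrl males and 1780 in HN males, both well above background, against 6.63 in Ctrl females and 18.4 in HN females, neither of which was. Scaled signals are those after each array was brought to a common 50th percentile over all probes, as used for all ratios below. Besides soti, hale was the 1 gene of that list that could be named. No gene other than Vm34Ca could be named among 26 genes of eggshell and yolk, and none other than Dup99B among 33 genes of seminal fluid, so that the lists say nothing further about these tissues.

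To compare the sexes, the female pair of arrays was set against the male pair with limma, with treatment in the model. Where an array did not have a probe well above background, its signal was held at the higher of the limit of that array and its own signal, so that the difference is a bound. Scaled Vm34Ca signals were 27253 in Ctrl females and 29212 in HN females, against 9.0 in Ctrl males and 5, the floor set for low signals, in HN males. Vm34Ca was at least 1977-fold higher in females (log2 difference 10.95, SE 0.33, adjusted p = 3.39e-05 by limma with Benjamini-Hochberg adjustment). Vm34Ca entered the fit through the female arrays alone, and both male values in it are limits. The SE and p therefore reflect how far these limits differ, not the spread of Vm34Ca in males, and are no test of it. The bound holds for this processing only: it was 650-fold with the 75th percentile, 569-fold with the 50th percentile of the probes that passed on all 4 arrays, 914-fold without scaling, 1265-fold under quantile normalization and 444-fold under normexp. Normexp adds an offset of 50 to each signal, which makes ratios to dim signals smaller. The bound was at least 1281-fold among control flies and at least 3053-fold among HN flies, and the larger bound in HN flies followed the lower limit of the HN male array (scaled 9.57 against 21.3). Among all 24562 probes tested, 65.2% were called higher in females, so that the call alone does not set Vm34Ca apart. The sex that held more calls depended on the scaling: of all calls, 76.3% were higher in females here, 40.9% with the 75th percentile, 51.7% without scaling, 36.8% with the 50th percentile of the common probes, and 62.1% under quantile normalization. The median log2 difference of all probes tested was 1.18 with this scaling, and Vm34Ca lay 9.77 above it.

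Dup99B had scaled signals of 5110 in Ctrl males and 5052 in HN males, against 6.06 in Ctrl females and 30.2 in HN females. It was at least 168-fold higher in males (log2 female over male -7.39, SE 0.09, adjusted p = 1.19e-05 by limma), while 20.3% of all probes were called higher in males. Minus the median of all probes, its log2 difference was -8.57. Among control flies Dup99B was at least 169-fold higher in males. Among HN flies the signal passed the limit in both sexes, and both arrays came from 1 scan. There the difference was 167-fold with this scaling, the HN female signal being 0.598% of the HN male signal. Before scaling the difference was larger, with readings of 8383 in HN males and 19.9 in HN females. The HN female reading is 1 spot with a software error of 21.5%. The fitted bound was 59.3-fold under normexp, 511-fold with the 75th percentile, 584-fold with the 50th percentile of the probes that passed on all 4 arrays, 363-fold without scaling and 262-fold under quantile normalization. Dup99B entered the fit through the male arrays alone. The Ctrl female value in it is a limit and the HN female value lies next to one. These are nearly alike, so that the SE and p leave out the spread of Dup99B in females and are no test of it. With dim arrays at their own signal, the log2 difference was -8.55 with an SE of 0.66 and an adjusted p of 0.00122. That setting gave a log2 difference of 12.04 with an adjusted p of 0.000121 by limma for Vm34Ca. Both genes still entered this fit through the sex in which each is high, and Vm34Ca in HN males stood at the floor of 5. These p-values are therefore no test of the genes either. Over all alternatives run, the adjusted p by limma was highest with no filter, at 0.00108 for Vm34Ca and 0.00577 for Dup99B. There too Vm34Ca in HN males stood at the floor, and 1 pool per group gives no spread between pools. Without scaling, and with a male array left out, limma used a common variance for all probes. The far smaller p-values of those fits are not given.

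**Figure D2:**
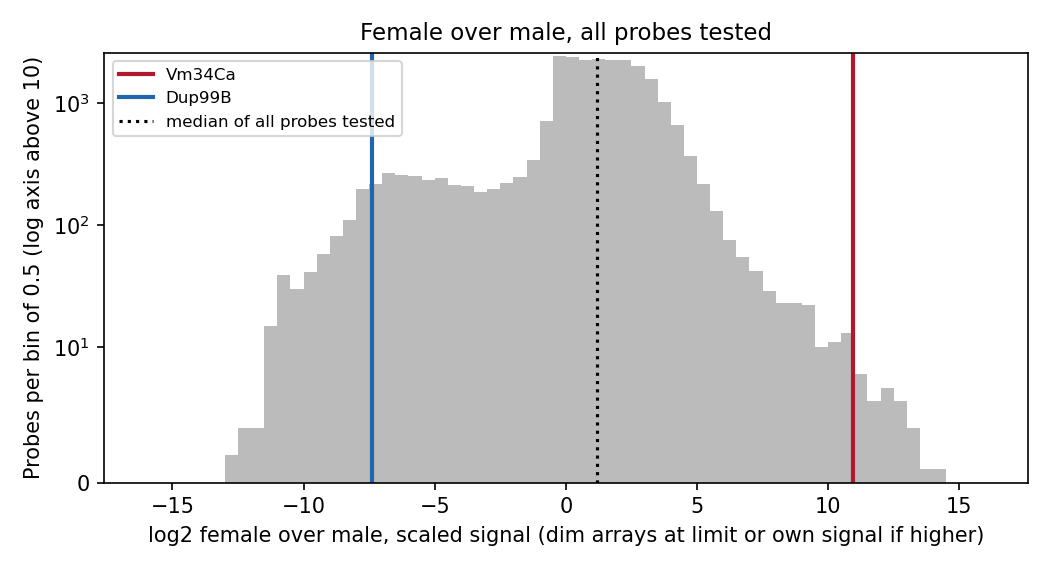
Number of probes (y axis, log above 10) by log2 female over male signal (x axis) for the 24562 probes tested, with dim arrays held at the higher of their limit and own signal. Vm34Ca lies at 10.95 and Dup99B at -7.39, on either side of the median of 1.18 (dotted line).

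Of all 32136 probes, 631 (1.96%) passed as well above background in both female pools and in neither male pool, and 3024 (9.41%) in both male pools and in neither female pool. Vm34Ca was 1 of the former. Dup99B fell outside the latter through its HN female reading. Other probes shifted in the same way. Of 3312 probes that passed in both male pools but not in Ctrl females, 288 (8.70%) did so in HN females. In reverse, of 3187 that did not pass in HN females, 163 (5.11%) did so in Ctrl females. The 6 spots nearest to the Dup99B spot had a median signal of 230 in HN females and 245 in Ctrl females, and the local background around it was 38.0 and 34.0. The part of either in the reading was not tested. With the Ctrl female array held at its limit (scaled 30.3), no fold change of Dup99B in females could be given from the HN female signal of 30.2. With the Ctrl female array at its own signal of 6.06, which lay below that limit, the log2 HN over control ratio was 2.32. A change of Dup99B in females was thus neither measured nor excluded.

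Within its own sex, the ratio of neither Vm34Ca nor Dup99B passed the 1.5-fold limit used for these arrays, a log2 ratio of 0.585, after prenatal HN. In HN females Vm34Ca was 1.07-fold its level in Ctrl females, a log2 ratio of 0.10. The 2 spots gave 0.08 and 0.12. The ratio was about as large as the spread of repeat spots, since the log2 HN over control ratio had an SD of 0.09 between spots of the same probe in females, over 7283 probes. The software error of each Vm34Ca ratio was 0.20. Before scaling, the ratios of the 2 spots were -0.01 and 0.03, and scaling added 0.09. The Vm34Ca level in the 2 female pools thus differed by no more than the measurement of 1 pool allows, and the spread between pools is unknown.

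For the females as a whole, 5.31% of 22180 probes compared were past 1.5-fold, 2.79% higher and 2.52% lower in HN flies (52.5% of those past it higher, and 40.1% without scaling). Among the 21087 probes that passed in both female pools, the median log2 ratio was -0.06, 3.48% were past 1.5-fold, and 21.6% had a higher ratio than Vm34Ca. Among the 631 female-limited probes the median was likewise -0.06, with 21 higher and 50 lower past 1.5-fold (11.3%), and 25.0% had a higher ratio than Vm34Ca. Vm34Ca was thus in the inner part of both distributions.

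In HN males Dup99B was 0.989-fold its level in Ctrl males, a log2 ratio of -0.02. This was smaller than the SD of 0.10 between repeat spots in males, over 8334 probes, and than the software error of 0.20. Before scaling the ratio was 0.33, and scaling took off 0.35 (log2 shift -0.35), because the median signal over all probes was 356 on the Ctrl male and 453 on the HN male array. Whether Dup99B was a little higher or level in HN males thus depended on the scaling, but under no setting run did it pass 1.5-fold. The male arrays also differ in scan, whose part in the ratio was not tested.

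Past 1.5-fold in males were 4.79% of 25346 probes compared, 2.72% higher and 2.07% lower in HN flies (56.8% of those past it higher, and 91.4% without scaling). The median log2 ratio was -0.07 over the 23083 probes that passed in both male pools, of which 4.03% were past 1.5-fold and 39.0% had a higher ratio than Dup99B. Male-limited probes had a median log2 ratio of -0.20, with 29 higher and 99 lower past 1.5-fold (4.23%). Of all 3024 male-limited probes, 14.0% had a higher ratio than Dup99B, which itself fell outside that set and lay 0.18 above its median. hale, with a log2 ratio of 0.03, was close to Dup99B. Whether the change with HN differs between the sexes could not be tested with 1 array per sex and treatment, and both genes were measured in both treatments in 1 sex only.

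**Figure D3:**
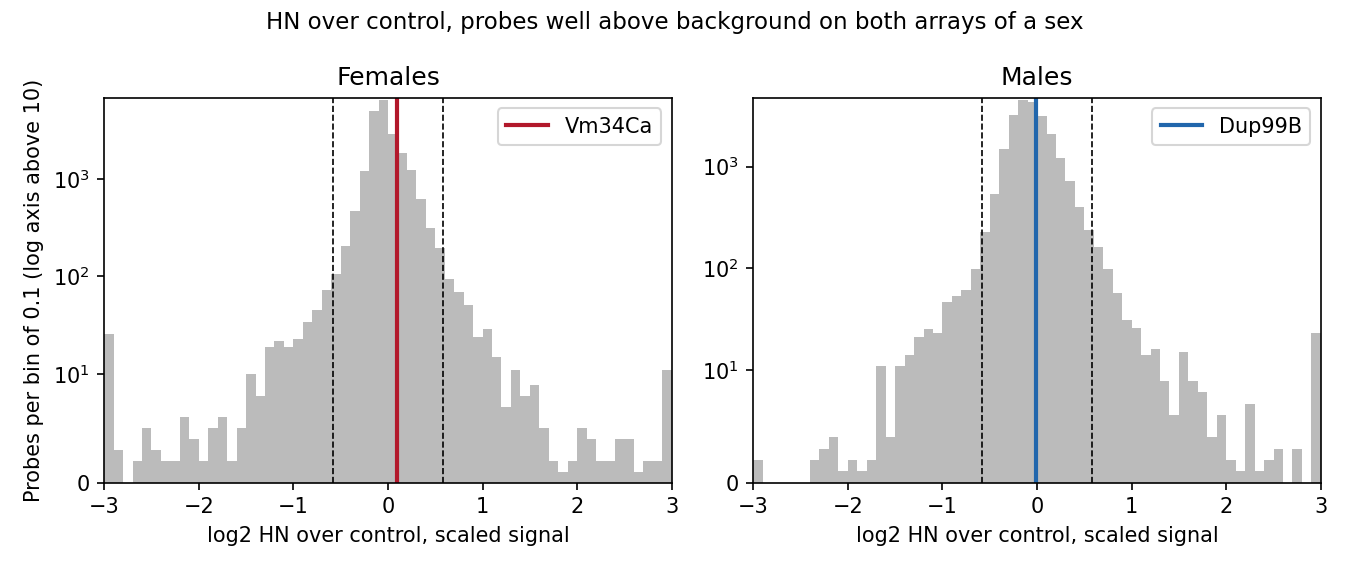
Number of probes (y axis, log above 10) by log2 HN over control signal (x axis) in females and in males, for probes that passed as well above background in both pools of that sex; dashed lines mark 1.5-fold and the bins at the ends of the x axis also hold all values beyond it. Vm34Ca at 0.10 and Dup99B at -0.02 lie between the dashed lines.

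Genes with the most similar profile were sought among the 296 probes with a symbol that passed in both pools of at least 1 sex. Likeness was the root mean square difference between log2 signals over the 4 arrays, each probe centred on its own mean, with dim arrays held as in the comparison of the sexes. Since 4 arrays in 2 sexes carry little beyond the sex difference, this is a description only. The order for Vm34Ca was CG32642 (0.88), lncRNA:CR32027 (1.68), Mur11Da (2.19), tor (2.49) and snRNA:U11 (2.71). CG32642 had scaled signals of 8432 in Ctrl females and 8280 in HN females and 5 on both male arrays. Mur11Da, named as a mucin-related gene, had 1343 and 1369 in females and 5 on both male arrays. Both of these were well above background in females alone, as was Vm34Ca. tor encodes the receptor Torso, which patterns the ends of the embryo, and had 4852 and 4480 in females and 70.9 and 70.8 in males. snRNA:U11, an RNA of the minor spliceosome, was well above background on all 4 arrays too. The log2 HN over control ratios of the 5 genes in females ran from -0.12 for tor to 0.14 for snRNA:U11, around the 0.10 of Vm34Ca.

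Profiles nearer to their member were found for Dup99B, in the order CG14262 (0.11), CG31910 (0.16), CG32450 (0.21), lncRNA:CR32690 (0.21) and CG12521 (0.29). All 5 passed in both male pools and in neither female pool. CG31910 had scaled signals of 6299 in Ctrl males and 6142 in HN males, and CG14262 of 5758 and 4658. In males the log2 HN over control ratios of these genes ran from -0.31 for CG14262 to -0.04 for CG31910, below the -0.02 of Dup99B but within 1.5-fold. With all female signals at the limit, the order of the 5 rests on the male arrays and on how far each signal stands above those limits. No such order is given for soti, which was below the limit on all 4 arrays.

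**Figure D4:**
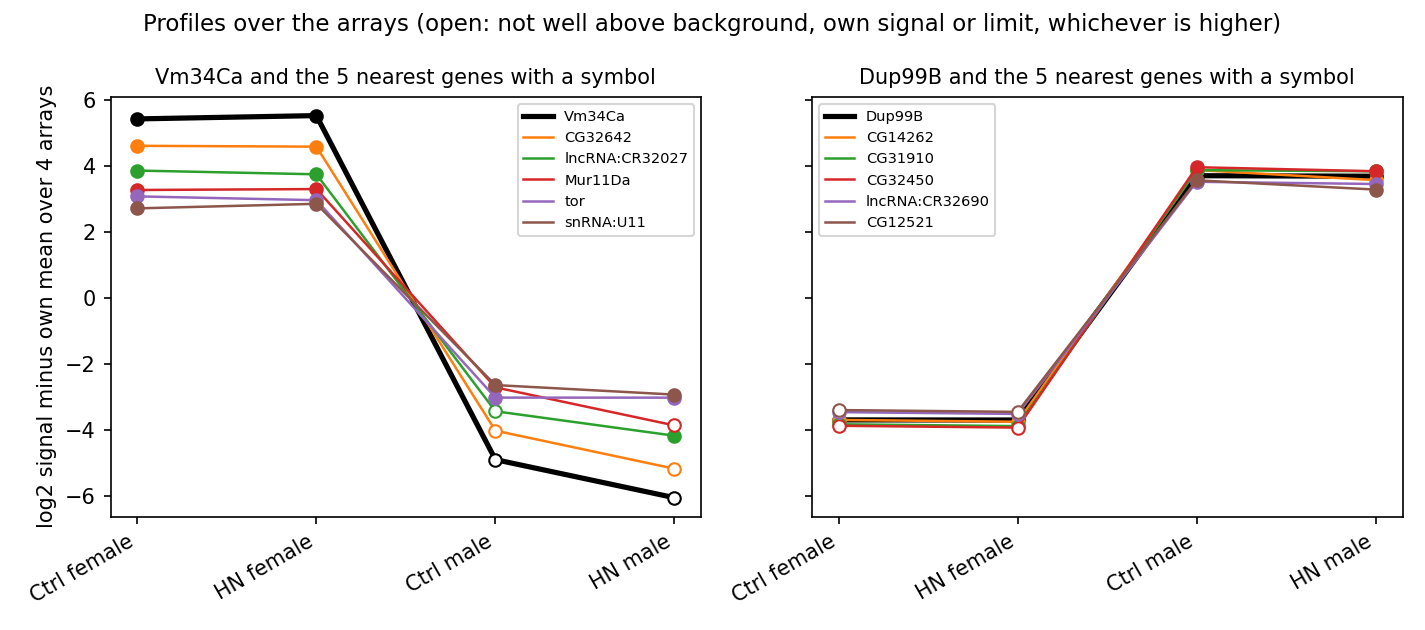
Log2 signal minus the probe's own mean over the 4 arrays (y axis) for Vm34Ca, Dup99B and the 5 genes nearest to each, by array; open points were not well above background and stand at the higher of their own signal and the limit of the array. The Vm34Ca line falls from females to males more than those of its 5 neighbors, while Dup99B and its neighbors run together from females up to males.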

How the data were processed

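Whole-body RNA of 4 pools of flies was measured on 1 array each, with groups taken from the sample labels. The authors deposited the intensity of every spot as given by Agilent Feature Extraction 11.5.1.1 (the methods name an earlier release), background-subtracted and not scaled between arrays, and a table of 1 intensity per probe. Outlier spots were left out here, which removed 26 probes. Log2 signals were averaged over the spots of a probe. The 50th percentile of every array was set to the mean log2 value of the 4, and signals under 5 were then set to 5, a percentile and floor named in the methods. HN ratios used probes well above background on 1 or both arrays of the sex. With 1, the ratio was a bound and counted in that direction alone.

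The sexes were compared with limma 3.58.1 in R 4.3.3 (1 residual degree of freedom plus the prior, adjusted p under 0.05), tested on simulated data: 191 of 200 probes with a log2 difference of 2 and 0 of 200 with a difference of 1 were called, with 15 and 0 false calls among 24362. The simulated data held no value at a limit and had no treatment effect, so they do not check the fit of the members. Far more probes were called here (65.2% and 20.3%), so the shares recovered do not carry over. The arrays hold 1 pool per group, so p-values measure no spread between pools of a group. With treatment in the model, the residual is how far the HN over control change differs between the sexes, moderated by the prior. Normexp used the median spot and local background signals, in place of the planned mean, and an offset of 50 added to each signal. The members, lists and tests were chosen with earlier results of these data known. The genes named are the 3 members, the 5 of most similar profile to each, and list members with a symbol. Symbols came from a RefSeq table of the Release 6 assembly, while the array design rests on dm3, so no coordinates are given.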

Additional observations from a re-analysis of the deposited data

Results flagged for a closer look

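The scaled signal of Dup99B on the HN female array was 30.2, against 6.06 on the Ctrl female array. It was singled out because it is a signal outside the males, in which Dup99B was compared between treatments, and above the level in control flies. It lay next to the limit of its array (scaled 29.1) and under that of the Ctrl female array (30.3), so that no fold change is given against that limit. It is a reading of 1 spot on 1 array, and the cause was not tested.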

How the results depend on the processing

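In the reported fit, Vm34Ca and Dup99B each entered through the sex in which it is high, with dim values held at limits, so that the SE and p are no test of them. Their sex differences kept their direction under all 18 alternatives each. They ran from 8.80 to 12.04 for Vm34Ca and from -9.19 to -5.89 for Dup99B, and minus the median of all probes from 7.89 to 11.21 and from -9.74 to -6.80. Leaving out 1 array gave 10.37 to 11.53 for Vm34Ca and -7.40 to -7.38 for Dup99B. The Vm34Ca range mainly reflects the limits of the male arrays (scaled 21.3 in Ctrl males and 9.57 in HN males). In the fit, Dup99B stood at the limit of 30.3 in Ctrl females, beside 30.2 in HN females, though its own Ctrl female signal was 6.06. Its narrow range follows from that limit and is no measure of its spread in females. The median itself, 1.18 as reported, was -0.42 with the 75th percentile, 0.07 without scaling, -0.62 with the 50th percentile of probes that passed on all 4 arrays and 0.47 under quantile normalization. Probes called higher in females, 16013 as reported, numbered 8713, 9987 and 7823 under the first 3 of these. Those called higher in males, 4981 as reported, numbered 12569, 9339 and 13455, with 7805 under quantile normalization and 2193 where all 4 arrays had to pass.

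The HN over control ratio of Vm34Ca in females moved by less than the repeat-spot SD under all 12 alternatives, from 0.01 to 0.18. That of Dup99B in males moved to 0.33 without scaling and 0.16 under normexp, and elsewhere ran from -0.02 to 0.06. Probes past 1.5-fold in HN females, 618 higher and 559 lower, became 219 and 265 under normexp, 2317 and 1653 with no filter, 392 and 341 with both arrays required to pass, and 217 and 274 at 2-fold. In males, 690 higher and 525 lower became 2985 and 280 without scaling, 450 and 349 under normexp, 1783 and 1348 with no filter, and 210 and 252 at 2-fold. Dim arrays at their own signal gave 1292 higher in males. Normexp adds an offset of 50 to each signal, which makes ratios to dim signals smaller, and its part in these counts was not tested.

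An alternative outside the planned ones was the earlier rule for a probe to pass, 50% of its spots well above background. The rule of all usable spots, on which the limits and bounds above rest, took its place after the data were seen. Under the earlier rule, 1070 probes were higher in HN males, and Dup99B in females had a bound of 0.998 on the log2 ratio. No paired analysis was possible because the labels give no replicate numbers and each group holds 1 array. Fits that leave out 1 array assume that a lone array varies like the pair.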
